A study of Saccharomyces cerevisiae with 41 samples.

Results

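The ribosome biogenesis factors of budding yeast were followed through UV irradiation in a wild type and 5 deletion strains. They were chosen by name: a gene is a member if its symbol is UTP, NOP, RRP, NOC, NSA, NUG, RIX, RLP, ENP, BMS, BRX, SSF, SOF, KRR, ERB, YTM or CIC followed by a number. The rule took 74 of 5449 budding yeast genes with a probe set, each with a single probe set, and all 74 passed the filter on dim signal that left 5337 genes. By their roles 31 of them act in the assembly of the small (40S) subunit, 29 in that of the large (60S) subunit and 2 in both, 5 are proteins of small nucleolar ribonucleoproteins (snoRNPs), and 7 are subunits of the exosome, the RNA-degrading complex that trims ribosomal RNA ends.

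Ribosomes are built in the nucleolus, where RNA polymerase I makes a long ribosomal RNA precursor that is folded, chemically modified and cut while ribosomal proteins are added. The UTP-A and UTP-B complexes and the U3 snoRNP join the precursor early and form the small subunit processome, while other factors carry the precursor of the large subunit to the nuclear pore. In yeast the genes for these factors are transcribed together: they are high in rapid growth on glucose and fall in many stresses, under the control of the TORC1 and protein kinase A pathways.

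Total RNA of 41 samples was measured on Affymetrix Yeast 2.0 microarrays, each sample on its own, and levels are the log2 signals deposited by the authors. All strains are haploid, of the YPH499 background, and were grown in YPD medium, which is rich in glucose, at 30 °C to an OD600 of 1.0. Cells suspended in water were exposed to UV-C at 100 J/m2 and then recovered in fresh YPD at 30 °C, and unirradiated cells were mock treated. For the wild type (WT), mig3Δ and snf1Δ there were unirradiated cells and cells at 15, 30 and 60 min of recovery, and for rad23Δ, snf1Δ rad23Δ and rad4Δ unirradiated cells and cells at 30 and 60 min. They are written below as mig3, snf1, rad23, snf1rad23 and rad4. SNF1 encodes the budding yeast member of the AMPK family, needed for growth without glucose, Mig3 is a zinc finger repressor, and Rad4 binds damaged DNA together with Rad23 at the start of nucleotide excision repair. Each of the 21 groups had 2 arrays except mig3 at 15 min, which had 1.

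MIG3, SNF1, RAD23 and RAD4 signals were between 1.91 and 2.74 in the strains that lack them and at least 7.59 on the other arrays. The a-mating-type markers MFA1, MFA2, STE2 and BAR1 were between 10.97 and 14.58 on every array, and the alpha pheromone genes MF(ALPHA)1 and MF(ALPHA)2 between 1.98 and 4.82, while the alpha markers STE3 and SAG1 reached 9.26 and 11.08. A gene is called changed at a limma adjusted p under 0.05, adjusted over the 5380 probe sets of 1 comparison, and changes are log2 differences ± SE of the fit. Later time points have no mock-treated counterpart among the arrays used here, so handling and the change of medium are part of each UV response. In cell populations, fewer cells of one kind and less RNA per cell cannot be told apart, and the authors' normalization to a shared distribution hides a change of all transcripts together.

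Member signals ran from 7.32 to 14.64 on the log2 scale. On each array the median of the 74 members was set against their mean on the unirradiated WT arrays. The median stood at -0.54 and -0.80 on the WT arrays at 60 min, at -0.70 and -0.83 in unirradiated snf1, and at -0.63 and -0.75 in unirradiated rad23. It was 0.01 and -0.04 in unirradiated rad4. The lowest median on any array, -1.18, was in rad23 at 60 min, where the other array had -0.95. The arrays of a group lay furthest apart in mig3 at 30 min, where replicate 1 was at -0.06 and replicate 2 at -0.80.

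**Figure D1:**
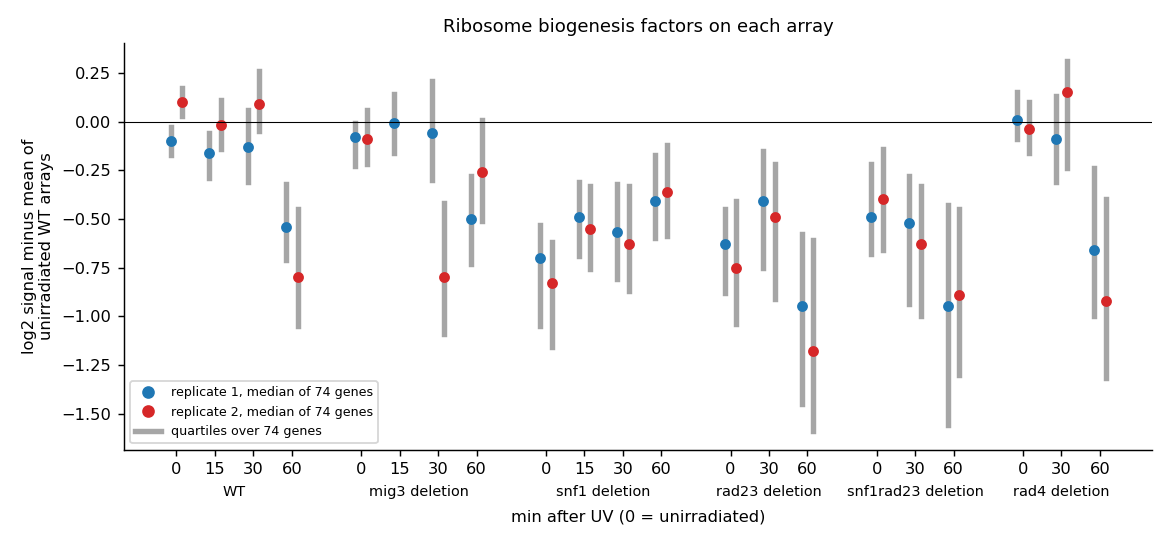
The vertical axis is the log2 signal minus the mean of the unirradiated WT arrays, and each point is the median of the 74 members on 1 array, with a bar over their quartiles; the horizontal axis gives strain and time after UV. The snf1 arrays start at -0.70 and -0.83 and stand at -0.41 and -0.36 at 60 min, while the arrays of WT, rad23, snf1rad23 and rad4 are lower at 60 min than unirradiated.

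In WT the members changed late. At 15 min 1 of 74 was called lower, UTP30, a small subunit factor, against 4.59% of all probe sets, and none was called higher against 1.32%. Without any 1 of the 4 arrays, UTP30 too lost its call. At 30 min 3 were lower against 12.6% of all probe sets, and 2 were higher, also against 12.6%. At 60 min 53 of 74 were lower against 18.5%, and none was higher against 12.1%. The median member change was -0.71 at 60 min, where the median of all probe sets was -0.05. For 70 of the 74, both 60 min arrays were below both unirradiated arrays, against 32.7% of all probe sets. The other 21 members had changes from -0.04 (SSF2) downward, none of them called. The 53 calls rest on the spread estimated over all 21 groups: with the 4 arrays of this comparison fitted alone limma called none of the members, and 35 passed an unadjusted p of 0.05. At 30 min that fit called 8. The 18S control probe set (middle) had 12.68 and 9.73 in unirradiated WT and 6.01 and 10.21 at 60 min, and its part in the falls was not tested.

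The 3 members that fell at 30 min were UTP20, UTP14 and UTP22. UTP20, a very large scaffold protein of the small subunit processome, had signals of 12.13 and 12.11 before UV, 11.79 and 11.70 at 15 min, 10.90 and 10.91 at 30 min and 11.32 and 9.93 at 60 min. Its WT groups did not overlap with the unirradiated one at any time, and its 60 min arrays were the most unlike each other. The change was -1.22 ± 0.24 at 30 min (adjusted p = 0.000678) and -1.50 ± 0.24 at 60 min (adjusted p = 8.23e-05). UTP14, which activates the helicase Dhr1 in the processome, changed by -1.06 ± 0.20 at 30 min, and UTP22, which joins the processome together with Rrp7, by -0.92 ± 0.21. All 3 calls at 30 min held without any 1 array. The 2 called higher at 30 min were YTM1, a partner of Erb1 and Nop7 in large subunit assembly, at 0.65 ± 0.24 and the exosome subunit RRP4 at 0.27 ± 0.10. Those 2 rises were lost when any 1 of the 4 arrays was left out, which gave 4 calls without replicate 1 of unirradiated WT and 3 without each of the others.

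At 60 min the deepest falls in WT after UTP20 were those of RRP5 and CIC1. RRP5, an RNA-binding protein needed for both subunits, had 12.91 and 13.08 unirradiated and 12.15 and 11.08 at 60 min, a change of -1.38 ± 0.24 (adjusted p = 0.000205). CIC1, a factor of the early large subunit precursor, had 13.06 and 13.13 unirradiated and 11.93 and 11.73 at 60 min, a change of -1.26 ± 0.13 (adjusted p = 3.62e-07). Its arrays differed by at most 0.20 within each of these WT groups, while those of RRP5 at 60 min were more than 1 apart. RRP8, a methyltransferase of 25S ribosomal RNA, changed by -1.13 ± 0.26, and UTP21 of the UTP-B complex by -1.02 ± 0.22. Leaving out replicate 2 of WT at 60 min reduced the 53 calls to 22, and leaving out replicate 2 of unirradiated WT reduced them to 25. Without any 1 array 14 calls held, those of UTP14, UTP15, UTP20, UTP30, SOF1, NOC2, NOC3, NOP2, RLP24, CIC1, RRP5, RRP9, RRP43 and RRP45.

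**Figure D2:**
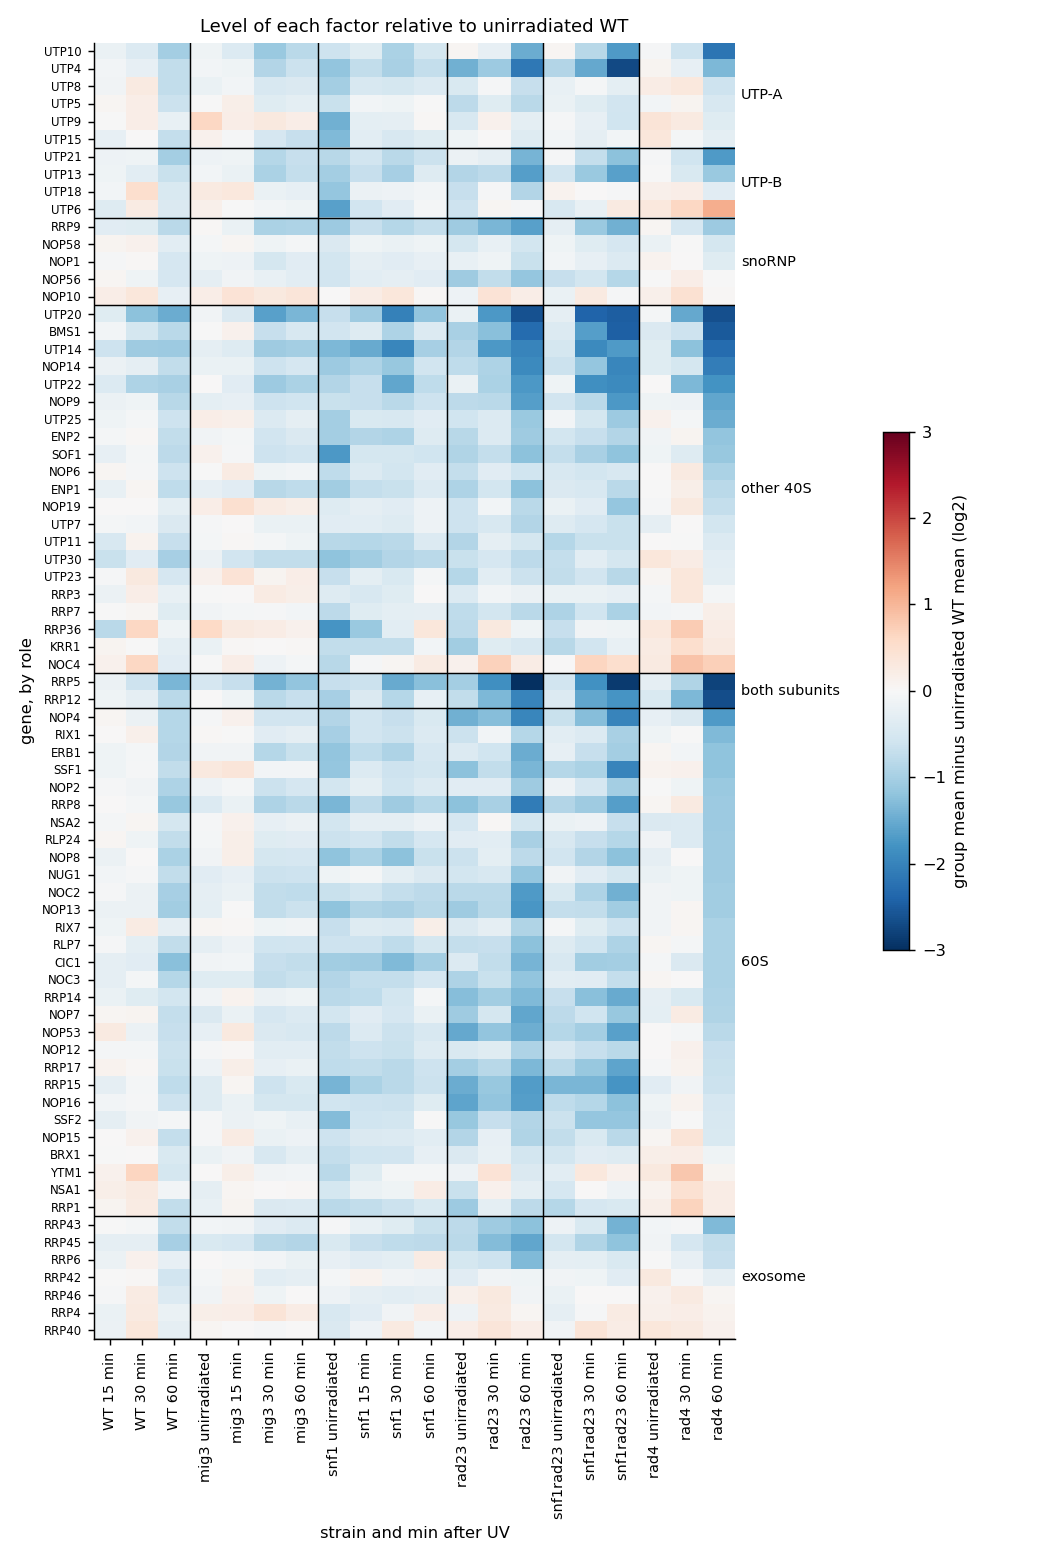
Each row is a member, grouped by role, and each column a strain and time; colour is the group mean minus the unirradiated WT mean on the log2 scale, blue for lower and red for higher. The columns of unirradiated snf1 and rad23 are blue in most rows, that of unirradiated rad4 is close to white, and UTP20, RRP5, BMS1, UTP14 and RRP12 are the darkest rows of the rad4 column at 60 min.

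Without UV, loss of SNF1 went with lower levels of most members. In unirradiated snf1 63 of 74 were lower than in unirradiated WT against 23.6% of all probe sets, and none was higher against 21.6%. The median difference was -0.77, and -0.06 over all probe sets. For 70 members both snf1 arrays were below both WT arrays, against 44.8%. RRP36, needed for early cuts in the small subunit precursor, had 7.79 and 7.32 in snf1 and 9.15 and 9.50 in WT, a difference of -1.77 ± 0.31 (adjusted p = 6.98e-05). SOF1, a WD-repeat protein of the small subunit processome, had 10.16 and 9.94 in snf1 and 11.71 and 11.86 in WT, a difference of -1.73 ± 0.19 (adjusted p = 1.58e-07). UTP6 of the UTP-B complex had 9.94 and 9.93 in snf1 and 11.47 and 11.63 in WT, a difference of -1.62 ± 0.16 (adjusted p = 6.09e-08). For these 3 every snf1 array was at least 1 log2 unit below every WT array. UTP9 of the UTP-A complex differed by -1.45 ± 0.19. NOP10, a small protein of the H/ACA snoRNPs that guide pseudouridylation, differed by 0.02 and was not called. The calls of 41 of the 63 members held without any 1 array, among them those of RRP36, SOF1, UTP6 and UTP9. The 18S control probe set (middle) had 6.45 and 5.17 in snf1 and 12.68 and 9.73 in WT, and its part in the result was not tested. Mating-type markers moved in the same comparison: of the 4 alpha markers STE3 was higher by 2.68 and SAG1 by 1.10, while MF(ALPHA)1 and MF(ALPHA)2 stayed at means of 2.13 and 2.00, and of the 4 a markers STE2, BAR1 and MFA2 were lower, at -0.88, -0.93 and -0.36. Their part in the result was not tested.

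In unirradiated rad23 55 members were lower than in WT against 25.4% of all probe sets, and none was higher against 22.2%, with a median of -0.72 against -0.07 over all probe sets. For 68 members both rad23 arrays were below both WT arrays, against 43.7%. The deepest difference was in NOP16, a constituent of large subunit precursors. Its signals were 10.79 and 10.53 in rad23 and 12 and 12.50 in WT, a difference of -1.59 ± 0.24 (adjusted p = 1.23e-05), with no overlap. NOP53 differed by -1.55 ± 0.26, RRP15 by -1.50 ± 0.28 and NOP4 by -1.46 ± 0.26, all 3 large subunit factors, and UTP4 of the UTP-A complex by -1.45 ± 0.27. The calls of 33 of the 55 held without any 1 array, those 5 among them. A measure of RNA integrity differed in the same strains: the 3' minus 5' signal of the SPT15 control lay between 1.95 and 2.18 in the 6 groups that lack RAD23 and between 1.23 and 1.63 in the other 15, and its part in these results was not tested. All 4 alpha markers were also higher in unirradiated rad23 than in WT, STE3 by 3.18, SAG1 by 2.13, MF(ALPHA)1 by 1.25 and MF(ALPHA)2 by 0.94, and of the 4 a markers BAR1 and MFA1 were lower, at -0.74 and -0.47. Their part in the result was not tested. The means of MF(ALPHA)1 and MF(ALPHA)2 there were 3.36 and 2.92, near the floor of the signal. For the other 3' minus 5' controls the ranges of the groups with and without RAD23 overlapped. In the groups that lack RAD23 and in the others they were 0.09 to 0.22 and 0.11 to 0.25 for ACT1. For SRB4 they were 3.26 to 4.26 and 2.91 to 4.34. The snf1 and rad23 comparisons share the unirradiated WT arrays. Set side by side, UTP9 was -1.45 in snf1 and -0.48 in rad23, and NOP16 was -0.59 in snf1 and -1.59 in rad23.

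In unirradiated snf1rad23 34 members were lower than in WT against 21.4% of all probe sets and none higher against 17.3%, with a median of -0.46. Leaving out replicate 2 of unirradiated WT left 9 of these calls and leaving out replicate 1 of snf1rad23 left 15, and the arrays of the comparison alone gave 20. Tested directly, 22 members were higher in snf1rad23 than in snf1 against 9.42%, and none was lower against 11.6%. UTP9 had 11.10 and 11.27 in snf1rad23 and 9.76 and 9.77 in snf1, a difference of 1.42 ± 0.19 (adjusted p = 2.53e-05). UTP18 was higher by 1.25 ± 0.22, UTP15 by 1.24 ± 0.14 and UTP6 by 1.15 ± 0.16, members of UTP-B, UTP-A and UTP-B. These calls held without any 1 array, as did those of SOF1 and UTP25, while leaving out 1 array at a time gave 9 to 13 calls in all, the fewest without replicate 2 of snf1. Against rad23, 11 members were higher in snf1rad23 against 11% of all probe sets and the exosome subunit RRP46 was lower, against 14.4%. Of those 12 calls only that of RRP43 held without any 1 array, and 2 were left without replicate 2 of rad23 and 5 without either snf1rad23 array, and 3 with the arrays of the comparison alone.

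No member was called between unirradiated rad4 and WT, against 4% lower and 2.75% higher of all probe sets, and 4 passed an unadjusted p of 0.05. The median difference was -0.01. In rad4 52 members were higher than in rad23 against 30.8%, and none was lower against 22.5%, with a median of 0.69 against 0.14 over all probe sets. NOP53 was higher by 1.56 ± 0.26 in rad4, UTP4 by 1.52 ± 0.27 and KRR1, a small subunit factor, by 1.29 ± 0.18. The 3' minus 5' signal of SPT15 was 1.63 in unirradiated rad4 and 2.09 in unirradiated rad23. All 4 alpha markers were lower in rad4 than in rad23, STE3 and SAG1 both at -1.94. Of the 4 a markers BAR1 and MFA1 were higher, at 0.93 and 0.74. The part of these differences in the result was not tested. In unirradiated mig3 1 member was lower than in WT, RRP45 at -0.45 ± 0.13, against 5.04%, and 1 was higher, UTP9 at 0.63 ± 0.19, against 3.27%. Neither held without any 1 array or with the arrays of the comparison alone.

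After UV a minority of the members rose in snf1, and the share passed that of all probe sets most clearly at 15 and 60 min. At 15 min 9 were higher against 3.81% of all probe sets and none was lower against 6.06%. At 30 min 15 were higher, near the 15.7% of all probe sets, and 4 lower against 15.3%. At 60 min 30 were higher against 22.4% and 2 lower against 21%, with a median change of 0.40 against 0.00 over all probe sets, and 60 members had both 60 min arrays above both unirradiated ones, against 42.6%. The 9 calls at 15 min became 4 without replicate 2 of unirradiated snf1 or replicate 1 at 15 min and 5 without replicate 2 at 15 min. The 19 at 30 min became 11 without replicate 2 of either group and 12 without replicate 1 of unirradiated snf1, and the 32 at 60 min became 16 without replicate 2 of either group. In all 4, 9 and 15 calls held without any 1 array at 15, 30 and 60 min. With the arrays of each comparison fitted alone 36, 41 and 54 members were called. The share of all probe sets called in that fit is not given here, so these counts are not a result about the members. The 2 arrays of each snf1 group differed by a median of 0.06 to 0.10 over all probe sets. The 18S ribosomal RNA control probe set (middle) moved too, with 6.45 and 5.17 in unirradiated snf1. It had 11.20 and 12.21 at 15 min and 9.72 and 11.08 at 60 min. This probe set was also higher at 60 min in mig3, rad23, snf1rad23 and rad4. It went from 5.2 and 5.5 to 8.33 and 8.26 in rad23. In snf1rad23 it went from 7.74 and 5.25 to 11.91 and 11.93, and in rad4 from 8.83 and 7.97 to 10.99 and 10.25. In WT its groups overlapped. Its part in the rises was not tested.

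SOF1 had the largest of the 9 rises at 15 min: it had 10.16 and 9.94 in unirradiated snf1, 11.31 and 11.18 at 15 min, 11.32 and 11.21 at 30 min and 11.21 and 11.17 at 60 min. The change at 15 min was 1.2 ± 0.19 (adjusted p = 0.000188), and no later array was below 11.17. UTP9 and UTP6 rose by 1.16 ± 0.19 and 1.04 ± 0.16 at 15 min, and by 1.48 ± 0.19 and 1.54 ± 0.16 at 60 min. RRP36 rose more slowly, with 7.79 and 7.32 unirradiated, 8.17 and 8.24 at 15 min, 9.01 and 8.99 at 30 min and 9.56 and 9.77 at 60 min. Its change at 60 min, 2.11 ± 0.31 (adjusted p = 1.2e-05), was the largest rise of a member in any UV response. NOC4, a partner of Nop14, rose by 1.10 ± 0.24 and UTP18 by 1.07 ± 0.22. The 2 that fell at 60 min were exosome subunits, RRP43 at -0.63 ± 0.15 and RRP45 at -0.32 ± 0.13, of which only RRP43 held without any 1 array. At 30 min the members that fell were UTP20, UTP22, UTP14 and RRP5, by -1.35 ± 0.24, -0.68 ± 0.21, -0.62 ± 0.20 and -0.82 ± 0.24, and of these only UTP20 held. The unirradiated snf1 arrays enter both the lower starting level and the rise. At 60 min the snf1 medians of -0.41 and -0.36 were still below unirradiated WT.

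**Figure D3:**
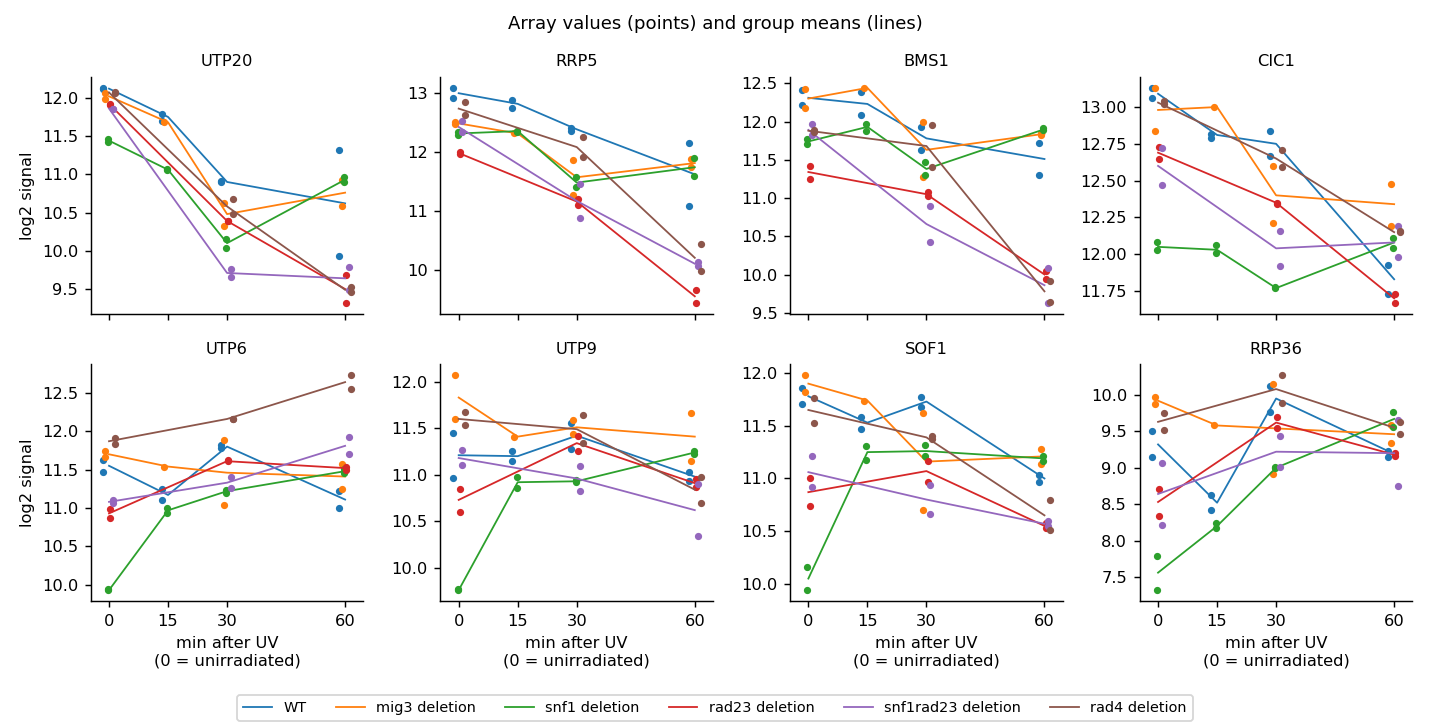
Log2 signal of 8 members against time after UV, with a point for each array and a line through the group means of each strain; 0 min is the unirradiated group. UTP20, RRP5 and BMS1 fall furthest in rad23, snf1rad23 and rad4, and UTP6, UTP9, SOF1 and RRP36 start lowest in snf1, at 7.32 to 10.16, and rise there.

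The strains lacking a repair factor had the deepest single falls at 60 min, in UTP20 and RRP5, while the median over the members was lower than the -0.71 of WT in rad4 alone. In rad4 48 members were lower against 26.9% of all probe sets and 1 higher, also against 26.9%, with a median of -0.73, and 40 of the 49 calls held without any 1 array. For 63 members both rad4 arrays at 60 min were below both unirradiated ones, against 42.8%. In rad23 27 were lower against 19.3% and 4 higher against 23.8%, with a median of -0.25. Without replicate 1 of unirradiated rad23 or replicate 2 at 60 min the 31 calls became 19. In snf1rad23 36 were lower against 25.6% and 4 higher against 27.2%, with a median of -0.42, and 26 were called with the arrays of that comparison alone. UTP20 had 12.08 and 12.06 in unirradiated rad4 and 9.46 and 9.53 at 60 min, a change of -2.58 ± 0.24 (adjusted p = 1.69e-08). RRP5 had 12.84 and 12.63 in unirradiated rad4 and 10.44 and 9.99 at 60 min, a change of -2.52 ± 0.24 (adjusted p = 2.23e-08). In both genes the groups stood more than 2 log2 units apart. RRP12, an export factor of both subunits, changed by -2.18 ± 0.24, UTP10 of the UTP-A complex by -2.16 ± 0.27 and BMS1, the GTPase of the processome, by -2.10 ± 0.21. In rad23 RRP5 changed by -2.42 ± 0.24 and UTP20 by -2.41 ± 0.24, and in snf1rad23 by -2.32 ± 0.24 and -2.22 ± 0.24. These falls all held without any 1 array. In WT, rad4, rad23 and snf1rad23 alike 23 members fell at 60 min, 16 of them among the 25 with the longest coding sequence. The share of all probe sets that fell in all 4 strains is not given here.

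After UV, UTP6 moved the other way from most members in rad4, rad23 and snf1rad23, but not in WT. In rad4 it had 11.91 and 11.84 unirradiated, 12.16 and 12.16 at 30 min and 12.55 and 12.73 at 60 min, and rose by 0.77 ± 0.16 (adjusted p = 0.000415). Its 60 min arrays were its highest in any strain. It also rose at 60 min in rad23 by 0.59 ± 0.16 and in snf1rad23 by 0.73 ± 0.16, of which the rad23 call was lost without 1 array. In WT at 60 min it was among the members called lower, with 11 and 11.22 and unirradiated arrays at 11.47 and 11.63. KRR1 rose at 60 min in rad23 and snf1rad23, by 0.57 ± 0.18 and 0.61 ± 0.18, and NSA1, a large subunit factor, by 0.36 ± 0.14 and 0.35 ± 0.14. Of these 4 calls only that of KRR1 in snf1rad23 held without any 1 array. NSA1 was called higher in 7 of the 15 UV responses and lower in none, where the responses of a strain share its unirradiated arrays. UTP20, UTP14 and UTP22 were each called lower in 11. NOP16, NOP7 and UTP7 were called in none of the 15.

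At 30 min the repair-deficient strains had called members in both directions. In rad23 13 were higher against 15.4% and 6 lower against 13.1%, in snf1rad23 5 higher against 19.4% and 14 lower against 16.1%, and in rad4 2 higher against 14.5% and 10 lower against 18%. UTP20 fell in all 3, by -1.53 ± 0.24, -2.15 ± 0.24 and -1.49 ± 0.24, and so did UTP22, by -0.75 ± 0.21, -1.72 ± 0.21 and -1.35 ± 0.21. UTP20 held without any 1 array in each, and UTP22 in snf1rad23 and rad4. NSA1 rose by 0.80 ± 0.14 in rad23, by 0.51 ± 0.14 in snf1rad23 and by 0.36 ± 0.14 in rad4, and the rad4 call did not hold. The 19 calls in rad23 became 8 without replicate 2 of unirradiated rad23, and 9 and 11 without replicates 1 and 2 at 30 min. The 19 in snf1rad23 became 8 with the arrays of the comparison alone, 10 without replicate 2 of its unirradiated group and 9 without replicate 2 at 30 min. The 12 in rad4 became 3 without replicate 1 of either group, 4 without replicate 2 of unirradiated rad4 and 7 without replicate 2 at 30 min.

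In mig3 no member was called at 15 min, where 1 array stood against 2 and 0.483% of all probe sets were lower and 0.26% higher, and none passed an unadjusted p of 0.05. At 30 min 19 were lower against 9.44% and at 60 min 11 against 6.75%, and none was higher against 14.1% and 10.3%. UTP20 had 11.98 and 12.06 unirradiated, 10.62 and 10.33 at 30 min and 10.93 and 10.59 at 60 min. Its changes were -1.54 ± 0.24 and -1.26 ± 0.24, and no irradiated array overlapped with the unirradiated ones. UTP22 fell by -1.10 ± 0.21 and -0.97 ± 0.21, and RRP9, a U3 snoRNP protein, by -1.0 ± 0.18 and -0.97 ± 0.18. These calls held without any 1 array. Between the 30 min arrays, replicate 2 was below replicate 1 for 71 of 74 members and more than 1 log2 unit apart for 13. The same arrays stood apart on ribosomal RNA controls: replicates 1 and 2 had 11.75 and 7.30 for the 18S probe set (middle) and 9.65 and 6.03 for the 25S one, and the part of this in the result was not tested. Without replicate 2 the fit called 3 members lower and 2 higher with a median of 0.06, and without replicate 1 it called 48 lower with a median of -0.71. Without replicates 1 and 2 of unirradiated mig3 the 19 calls at 30 min became 9 and 5. With the arrays of each comparison alone limma called none at 30 or 60 min, where 8 and 21 passed an unadjusted p of 0.05. At 60 min 6 calls were left without replicate 1 of unirradiated mig3 and 4 without replicate 2.

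Whether a deletion altered the UV response was tested as the strain's response minus that of WT. In snf1 4 members were higher at 15 min against 1.41% of all probe sets, SOF1, UTP6, UTP15 and UTP9, by 1.45 ± 0.26, 1.42 ± 0.23, 1.25 ± 0.20 and 1.16 ± 0.27. The same 4 genes were the called ones at 30 min, by 0.84 to 1.27, against 2.14%. With the arrays of each comparison alone 13 members were called at 15 min, 8 at 30 min and 36 at 60 min. The share of all probe sets in that fit is not given here. Only SOF1 held at 30 min without any 1 array, where 2 calls were left without replicate 2 of either unirradiated strain or replicate 1 of either strain at 30 min. At 60 min 61 of 74 members were higher against 11.6%, and none was lower against 9.52%, with a median of 1.11 against 0.06 over all probe sets. RRP36 led with 2.25 ± 0.44 (adjusted p = 0.00102), then UTP6 with 1.98 ± 0.23 (adjusted p = 4.53e-06) and SOF1 with 1.92 ± 0.26 (adjusted p = 3.44e-05), and 41 of the 61 calls held without any 1 array. The difference of responses holds the lower unirradiated level of snf1 as well as the fall in WT.

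In rad4 the response at 60 min was lower than that of WT for 8 members against 9.07% and higher for UTP6, at 1.21 ± 0.23, against 8.51%. The 8, a share near that of all probe sets, were RRP12, BMS1, UTP10, RRP5, UTP20, UTP25, NOP14 and UTP14, led by RRP12 at -1.36 ± 0.34 and BMS1 at -1.29 ± 0.30, and all 8 are among the 25 longest members. BMS1 and UTP6 held without any 1 array. The 9 calls became 2 without replicate 2 of rad4 at 60 min, 15 without replicate 2 of WT at 60 min, and 4 or 5 without replicate 1 of unirradiated WT, replicate 1 of WT at 60 min or either unirradiated rad4 array, and 1 with the arrays of the comparison alone. In rad23 2 were lower at 60 min against 5.56%, RRP5 at -1.04 ± 0.34 and the exosome nuclease RRP6 at -0.57 ± 0.16, and 7 higher, near the 8.61% of all probe sets. With the arrays of the comparison alone limma called none, and 15 passed an unadjusted p of 0.05. Of these 9 calls UTP6, at 1.03 ± 0.23, held without any 1 array, and leaving out either unirradiated WT array, replicate 2 of unirradiated rad23 or either rad23 array at 60 min left 2 to 5 calls. In snf1rad23 2 were lower at 60 min against 8.74%, BMS1 at -1.23 ± 0.30 and NOP19 at -0.66 ± 0.22, and 11 higher against 11%. UTP30 led these with 1.2 ± 0.26, and UTP6 followed with 1.17 ± 0.23. Without either array of unirradiated snf1rad23, 13 calls became 8, and with the arrays of the comparison alone 0, where 13 passed an unadjusted p of 0.05. At 30 min limma called no member in rad23, snf1rad23, rad4 or mig3, where 4, 5, 2 and 12 passed an unadjusted p of 0.05 and 3.36%, 3.16%, 0.818% and 0.948% of all probe sets were called. At 60 min limma called none in mig3, where 11 passed an unadjusted p of 0.05 and 0.836% of all probe sets were called. Without replicate 1 of mig3 at 30 min 26 members were lower at 30 min, and without replicate 1 of snf1rad23 at 30 min 1 was. In mig3 at 60 min 4 were higher without replicate 1 of WT at 60 min, 1 without its replicate 2 and 3 without replicate 1 of mig3 at 60 min. All these comparisons share the WT arrays.

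Between 30 and 60 min 49 members fell in WT against 16.4% of all probe sets and none rose against 11.7%, with a median of -0.64. Without replicate 2 of WT at 30 min 16 calls were left and without replicate 2 at 60 min 29, and with the 4 arrays alone 0, where 41 passed an unadjusted p of 0.05. YTM1 had 12.69 ± 0.08 at 30 min and 11.51 ± 0.31 at 60 min (SD, n = 2), a change of -1.18 ± 0.24. In rad4 51 fell against 16.5%, led by BMS1 at -1.90 ± 0.21 and RRP5 at -1.87 ± 0.24, and UTP6 rose by 0.48 ± 0.16, also against 16.5%. Without replicate 2 of rad4 at 60 min 31 calls were left. In rad23 30 fell against 5.93% and none rose against 3.55%, and each left-out array reduced the count, to 6 to 12. In snf1rad23 12 fell against 11.6% and UTP6 rose against 8.4%, with 4 calls left without replicate 1 at 30 min and 5 without replicate 1 at 60 min, and none with these arrays alone, where 17 passed an unadjusted p of 0.05. In snf1 9 rose against 12% and none fell against 12.3%. They included UTP14, UTP20 and UTP22, at 0.95 ± 0.20, 0.83 ± 0.24 and 0.81 ± 0.21, the 3 members that had fallen in snf1 at 30 min beside RRP5. Each left-out array reduced the 9 to between 2 and 4. The arrays of the comparison alone gave 36, a fit for which the share of all probe sets is not given here. In mig3 limma called 0 members and 0% of all probe sets in either direction, and 0 members passed an unadjusted p of 0.05; without replicate 1 at 30 min 1 member was higher.

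Among the members, those with long coding sequences had the lowest median changes at 60 min in WT, rad23, snf1rad23 and rad4. The coding lengths, introns included, ran from 177 bp in NOP10 to 7482 bp in UTP20, with RRP5 at 5190 bp, UTP10 at 5310 bp, UTP22 at 3714 bp, RRP12 at 3687 bp and BMS1 at 3552 bp. In rad4 at 60 min 26.9% of all probe sets were lower, and the share over other genes of like length is not given here. The median change was -1.42 in the 25 longest members (1818 bp or more), of which 23 were lower. It was -0.71 in the 25 of middle length, with 15 lower and 1 higher, and -0.40 in the 24 shortest (1080 bp or less), with 10 lower. From longest to shortest the medians at 60 min were -0.82, -0.16 and -0.05 in rad23, in snf1rad23 -1.04, -0.39 and -0.06, and in WT -0.82, -0.64 and -0.55. At 60 min the 3' minus 5' signal of SPT15 ran from 1.27 to 2.18 over the 6 strains, and its part in the relation with length was not tested.

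Spearman's rho between length and change over the 74 members was -0.62 in rad4 and rad23 at 60 min, -0.57 in snf1rad23, -0.58 in mig3 and -0.40 in WT. In snf1 it was 0.08 at 60 min and -0.17 at 30 min. Over the 5263 other genes it was -0.35, -0.37, -0.38, -0.19, -0.07 and -0.05 in rad4, rad23, snf1rad23, mig3, WT and snf1 at 60 min. These are descriptions across genes, which share the arrays and are not independent. Without UV rho over the members was -0.03 in mig3, -0.22 in snf1, 0.05 in rad23, 0.29 in snf1rad23 and -0.30 in rad4, each against WT. Leaving out 1 array or changing the scaling gave -0.64 to -0.61 in rad4 and -0.45 to -0.13 in WT at 60 min. Outside the name rule, the longest listed assembly factor, REA1 (also known as MDN1) with 14733 bp, was not called in rad4 at 60 min, at 0.36 ± 0.23, and changed by -1.29 ± 0.23 in WT.

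**Figure D4:**
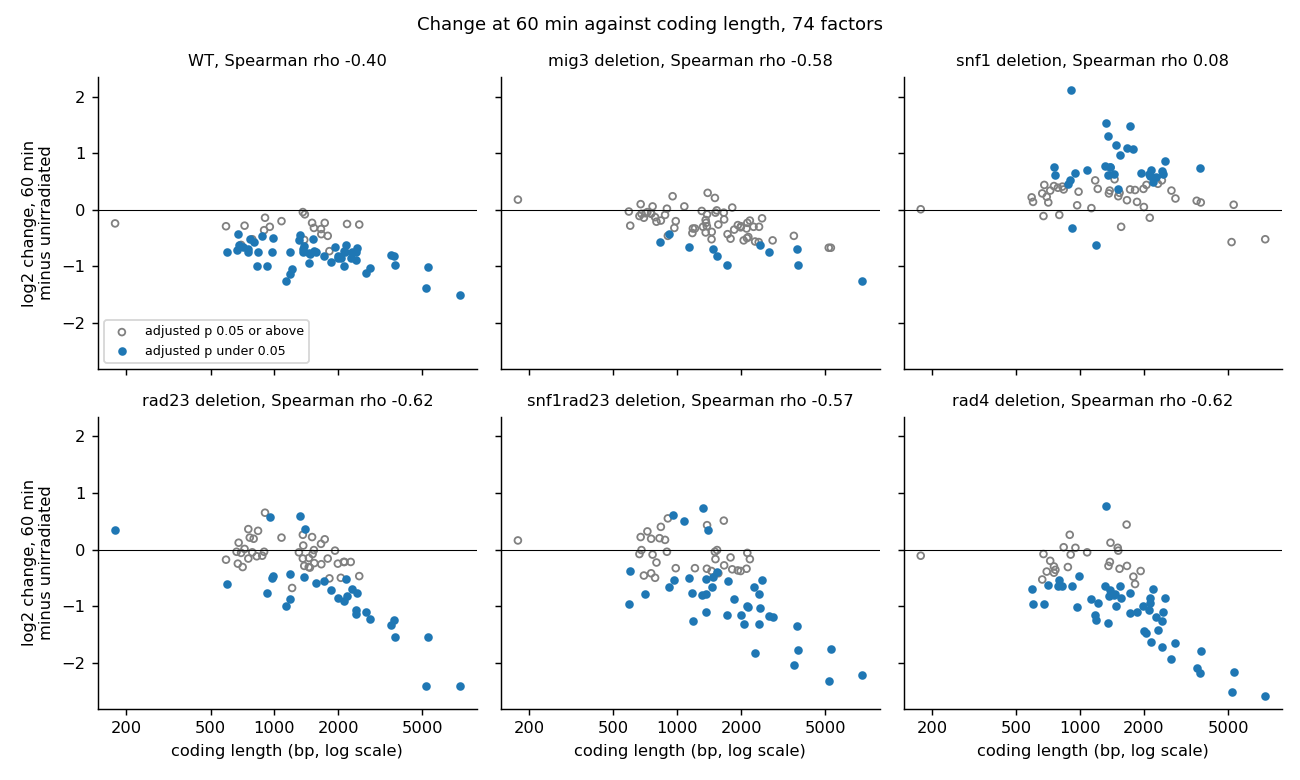
Each point is a member, placed by its coding length in base pairs on a log axis and its log2 change at 60 min, with 1 panel per strain; filled points have an adjusted p under 0.05. The points slope downward to the right in rad23, snf1rad23, rad4 and mig3, where rho is -0.62, -0.57, -0.62 and -0.58. In WT rho is -0.40, and in snf1, where it is 0.08, the points lie level.

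By role, the shares that fell in WT at 60 min, where 18.5% of all probe sets did, were 5 of 6 in UTP-A, 3 of 4 in UTP-B, 3 of 5 among the snoRNP proteins, 14 of 21 among the other 40S factors, 22 of 29 among the 60S factors, both factors of the 2 subunits and 4 of 7 exosome subunits. The medians were -0.73, -0.56, -0.50, -0.70, -0.74, -1.10 and -0.42. In unirradiated snf1 all 4 of UTP-B and 5 of 6 of UTP-A were lower than in WT against 23.6% of all probe sets, each with a median of -1.09, and in snf1 at 60 min 3 and 4 of them rose against 22.4%. No snoRNP protein was called in snf1 at 60 min. NOP1, the fibrillarin methyltransferase, had 13.74 and 13.67 in unirradiated snf1, 14.08 and 13.97 at 60 min, and 14.31 and 14.21 in unirradiated WT.

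Of the 7 exosome subunits 3 were lower than WT in unirradiated snf1 against 23.6% of all probe sets, with a median of -0.25. In unirradiated rad23 3 were lower against 25.4%, with a median of -0.33. The widest span of group means among RRP4, RRP40, RRP42 and RRP46 was 0.87, while RRP6, RRP45 and RRP43 had spans of 1.58, 1.57 and 1.41. RRP45 had 12.02 and 12.11 in unirradiated WT and 10.97 and 11.18 at 60 min, and was lower in 10 of 15 UV responses. RRP43 had 11.33 and 11.23 in unirradiated rad4 and 10.13 and 9.96 at 60 min. RRP4, a cap subunit, was called higher in 5 UV responses. Of 7 exosome subunits and cofactors outside the name rule, 6 were lower in unirradiated snf1 against 23.6% and 5 rose in snf1 at 60 min against 22.4%. MTR4, the helicase that feeds the nuclear exosome, fell by -1.33 ± 0.23 in WT and by -2.05 ± 0.23 in rad4 at 60 min.

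SSF1 and SSF2 are near-identical copies that act in 60S assembly, so their probe sets may share signal and each value is uncertain. SSF1 had 9.86 and 10.55 in unirradiated WT and 9.65 and 9.27 at 60 min. SSF2 had 9.38 and 9.96 and then 9.43 and 9.82, with overlapping groups. In rad4 SSF1 went from 10.40 and 10.21 to 9.12 and 8.89, and SSF2 from 9.45 and 9.55 to 9.24 and 9.17. In snf1 SSF2 rose by 1.30 ± 0.18 at 60 min, and that call held without any 1 array.

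The name rule leaves out 75 listed assembly factors. In WT at 60 min 49 of 75 fell against 18.5% of all probe sets and none rose against 12.1%, with a median of -0.66. The deepest were DBP3 and DHR2, both RNA helicases, at -1.39 ± 0.27 and -1.30 ± 0.30. In rad4 at 60 min 51 fell against 26.9% and 1 rose, with a median of -0.77. In rad23 33 fell against 19.3% and 3 rose against 23.8%, and in snf1rad23 34 fell against 25.6% and 3 rose against 27.2%. In snf1 at 60 min 36 rose against 22.4% and 1 fell against 21%, with a median of 0.47, led by RSA4 at 2.07 ± 0.30, a large subunit factor removed by Rea1. REA1 itself was the 1 that fell, by -1.01 ± 0.23. In unirradiated snf1 60 were lower than in WT against 23.6%, in rad23 47 against 25.4%, in snf1rad23 31 against 21.4% and in rad4 none against 4%.

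Of 8 listed regulators of ribosome biogenesis or ribosomal protein genes 7 were tested, and CRF1 was too dim. IFH1, a coactivator that binds Fhl1 at ribosomal protein genes, fell in WT by -0.99 ± 0.26 at 15 min and by -2.00 ± 0.26 at 30 min (adjusted p = 1.31e-05). At 60 min it was at -0.71 ± 0.26, a call lost without replicate 2 of WT at 60 min. Its part in the changes of the members was not tested. At 60 min IFH1 fell by -2.40 ± 0.26 in rad4, -2.25 ± 0.26 in snf1rad23, -1.15 ± 0.26 in rad23 and -1.22 ± 0.26 in mig3. In snf1 it fell by -0.82 ± 0.26 at 30 min (adjusted p = 0.021) and was at 0.10 ± 0.26 at 60 min (adjusted p = 0.789). In unirradiated snf1 it was -0.97 ± 0.26 from WT, a call lost without replicate 2 of snf1. FHL1, its forkhead partner, fell in rad4 by -1.84 ± 0.34 at 30 min and -2.48 ± 0.34 at 60 min. DOT6, a repressor of ribosome biogenesis genes, fell at 60 min by -1.25 ± 0.20 in WT and -1.38 ± 0.20 in snf1. Its paralog TOD6 fell by -1.01 ± 0.21 in rad4. SFP1, an activator of the regulon, fell by -0.96 ± 0.16 in rad4 and -0.82 ± 0.16 in snf1 and snf1rad23 at 60 min. STB3, a repressor, rose by 1.06 ± 0.30 in rad4 at 60 min. Its mean there went from 9.44 unirradiated to 10.49, where unirradiated WT had 10.56 and WT at 60 min 10.37. SCH9, a TORC1 target kinase, was at -0.15 ± 0.20 in WT at 60 min and not called. In unirradiated snf1 it was -0.57 ± 0.20 from WT (adjusted p = 0.025), and it rose in snf1 by 0.63 ± 0.20 at 60 min (adjusted p = 0.0147). In unirradiated rad4 it was -0.67 ± 0.20 from rad23 (adjusted p = 0.00763). The calls given here without a remark held without any 1 array. For IFH1 in WT at 15 min, snf1 at 30 min, rad23 and mig3, and for SCH9, no fit without 1 array is given here.

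Some members are neighbours in the genome. In the order of genes of the R64 assembly, RRP3 lies next to SSF1, UTP9 next to RIX1, and RRP15 next to NOC4. In unirradiated rad23 RRP15 was at -1.50 ± 0.28 while NOC4 was at 0.12 ± 0.24, not called. In unirradiated snf1 UTP9 was at -1.45 ± 0.19 and RIX1 at -0.98 ± 0.22, both lower.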

How the data were processed

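RNA of 41 cultures was measured on Affymetrix Yeast 2.0 arrays. The deposited values are log2 signals that the authors made with GCRMA 2.10.0 in R 2.6.2, per the submitters' processing notes, and they were used as deposited. Of 10928 probe sets 5498 matched a budding yeast gene and 5380 passed a filter of log2 4 on at least 2 arrays. A model of 21 group means was fitted with limma 3.58.1 in R 4.3.3 (lmFit, eBayes), with Benjamini-Hochberg adjustment over the 5380 probe sets of each of 40 contrasts. The samples were called biological replicates in the labels.

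The members and gene lists were chosen with earlier results of these data known. Named genes are, per comparison, up to 6 called members with the largest fall and up to 6 with the largest rise, calls against the main direction, the brightest member of a role, SSF1, SSF2, the exosome members, all regulators and up to 4 genes of another list; a few other members were named after their values were seen. Coding length was taken up after the values were seen. Lengths and neighbours are from the RefSeq R64 gene table, and promoter sequences were not used here. Deviations of same-numbered arrays correlated between -0.36 and 0.71 (median 0.03), over 0.1 in 33.7% of pairs and not in every pair, so the numbers were not taken to pair the arrays. On simulated data for WT at 60 min the fit recovered 26.9%, 76.1% and 95.5% of changes of 0.5, 1 and 2 log2 units. The alternatives were other scalings, no filter, a trended robust variance, a replicate block, the contrast's own arrays and leaving out each array. The number of arrays limits the precision.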

Additional observations from a re-analysis of the deposited data

Results flagged for a closer look

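In 6 comparisons a strain's UV response differed from that of WT for at least 1 member, by the limma test of the difference itself. In snf1 4 members differed at 15 min, 4 at 30 min and 61 at 60 min, all with a higher response, against 1.41%, 2.14% and 11.6% of all probe sets. At 60 min 9 differed in rad23, 7 higher against 8.61% and 2 lower against 5.56%. In snf1rad23 13 differed at 60 min, 11 higher against 11% and 2 lower against 8.74%. In rad4 9 differed at 60 min, 8 lower against 9.07% and 1 higher against 8.51%. The counts in rad23, snf1rad23 and rad4 are near the shares of all probe sets. All 6 comparisons share WT arrays.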

How the results depend on the processing

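The number of called members stayed within 1.5 times its value in all 40 comparisons without the filter, with a trended robust variance and with the replicate number as a block, so the block changed no count by more. With the replicate block 54 members were called in WT at 60 min, 34 in snf1 and 50 in rad4. Quantile normalization and median centring moved only WT at 15 min, from 1 to 0 and 0, and mig3 against WT, from 2 to 1 and 1. Fitting the arrays of a comparison alone, which leaves far fewer residual degrees of freedom, gave 8 calls for WT at 30 min and 0 at 60 min, 0 for mig3 at 30 and at 60 min, 36, 41 and 54 for snf1 at 15, 30 and 60 min, and 8 and 26 for snf1rad23 at 30 and 60 min. Between unirradiated strains it gave 0 for mig3 against WT, 20 for snf1rad23 against WT and 3 against rad23. For responses minus that of WT it gave 13, 8 and 36 in snf1 at 15, 30 and 60 min, 1 and 0 in rad23 and 1 and 0 in snf1rad23 at 30 and 60 min, and 1 in rad4 at 60 min. Between 30 and 60 min it gave 0 in WT, 36 in snf1 and 0 in snf1rad23. The shares of all probe sets called in these fits are not given here, so their counts are not results about the members.

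Leaving out each array in turn gave 0 calls for WT at 15 min, 3 to 4 calls for WT at 30 min, 22 to 51 calls for WT at 60 min, 5 to 48 calls for mig3 at 30 min, 4 to 8 calls for mig3 at 60 min, 4 to 6 calls for snf1 at 15 min and 11 to 13 calls for snf1 at 30 min. It gave 16 to 23 calls for snf1 at 60 min, 8 to 16 calls for rad23 at 30 min, 19 to 24 calls for rad23 at 60 min, 9 to 16 calls for snf1rad23 at 30 min, 31 to 37 calls for snf1rad23 at 60 min, 3 to 7 calls for rad4 at 30 min and 41 to 53 calls for rad4 at 60 min. Between unirradiated strains it gave 0 to 1 for mig3 against WT, 43 to 61 for snf1 against WT, 37 to 53 for rad23 against WT, 9 to 33 for snf1rad23 against WT, 9 to 13 for snf1rad23 against snf1, 2 to 9 for snf1rad23 against rad23 and 38 to 46 for rad4 against rad23. For responses minus that of WT it gave 3 to 5 for snf1 at 15 min, 0 to 26 for mig3 at 30 min, 0 to 4 for mig3 at 60 min, 2 to 4 for snf1 at 30 min, 43 to 62 for snf1 at 60 min, 2 to 11 for rad23 at 60 min, 0 to 1 for snf1rad23 at 30 min, 8 to 15 for snf1rad23 at 60 min and 2 to 15 for rad4 at 60 min. Between 30 and 60 min it gave 16 to 50 in WT, 0 to 1 in mig3, 2 to 4 in snf1, 6 to 12 in rad23, 4 to 15 in snf1rad23 and 31 to 48 in rad4. No member has several tested probe sets, so another probe set could not be tried. Differences near the replicate spread were not detectable with 2 arrays a group.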
